A study of Mus musculus with 12 samples.

Results

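The hepatocyte response to phenobarbital was read from 6 of the 12 arrays of the series, chosen by their sample titles alone. Hepatocytes of treated mice gave 3 arrays and hepatocytes of vehicle mice gave 3. The other 6 arrays hold liver mesenchymal cells under the same treatments, and they enter only the last comparison. All mice were male C57BL/6N animals aged 12 weeks, and the labels name no transgene or deletion in either group. Treated mice took up phenobarbital with the drinking water at 50 mg/kg per day for 14 days, while vehicle mice drank tap water for the same time. Nothing in the labels says how the hepatocytes were isolated. The labels also do not say that the arrays of a group came from separate animals, so the p-values measure only the spread between these samples, which may be technical. Each value below is a log2 expression level from RMA, a method that brings all arrays to a common distribution, and a difference is the mean of the treated arrays minus the mean of the vehicle arrays on that log2 scale. With so few arrays a group, precision is low throughout.

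Phenobarbital is a barbiturate that leads the nuclear receptor CAR (Nr1i3) into the hepatocyte nucleus, in part by blocking signals of the epidermal growth factor receptor. There CAR, together with its relative PXR (Nr1i2), switches on genes that oxidise, conjugate and export foreign compounds, with Cyp2b10 as the classical mouse target. The oxidising enzymes are cytochrome P450 proteins of the smooth endoplasmic reticulum, while glutathione transferases, sulfotransferases and glucuronosyltransferases attach the groups that make a compound soluble.

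The samples carried hepatocyte RNA. The 16 measured hepatocyte markers had mean log2 levels between 12.92 and 13.04 in the 6 arrays, and none of them was dim in every array. Many markers of other cells were low. Of 17 Kupffer cell markers 9 lay below the filter for dim genes in all 6 arrays. So did 8 of 17 markers of sinusoidal endothelium and 11 of 15 of stellate cells and fibroblasts. Some were not low: of 4 erythroid markers 2 lay below the filter in all 6 arrays, of 8 B cell markers 5 and of 7 platelet markers 2. The erythroid marker Alas2 was between 10.67 and 11.15 in the 6 arrays, and the B cell marker Ighm between 8.13 and 8.87. The erythroid markers summed to 1905 to 2511 on the linear scale in vehicle arrays and to 2161 to 2547 in treated arrays. Summed on the linear scale, the Kupffer markers ran from 1289 to 1351 in vehicle arrays and from 1056 to 1590 in treated arrays. The endothelial markers ran from 1648 to 1851 and from 1590 to 2283. Treated array 3 had the highest mean level of both lists, 6.35 for the Kupffer markers and 6.61 for the endothelial markers, against 5.76 to 6.09 and 6.13 to 6.43 in the other 5 arrays. No marker is listed at 0, since RMA gives every probe set a value.

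Vehicle array 1 stood apart from its group. Its levels correlated with those of vehicle arrays 2 and 3 at r = 0.981 and 0.979 over the tested genes, while those 2 correlated at 0.994. In 88 tested genes it lay more than 1 log2 unit from both other vehicle arrays, 38 above and 50 below, compared with 6 and 7 genes for vehicle arrays 2 and 3 and 13 to 27 genes for the treated arrays. The clock activator Arntl was at 9.57 in vehicle array 1 and between 5.73 and 6.20 in the other 5 arrays. Elovl3, an elongase of fatty acids, was at 13.07 there and between 9.84 and 10.61 in the other 5. In the mesenchymal arrays, Arntl was likewise at 9.36 in vehicle array 1 and between 6.68 and 7.31 in the other 5, and the clock output Dbp at 6.52 against 11.65 to 12.15. The time of day of sampling was not given in the sources used here, and its part in these values was not tested. Values without hepatocyte vehicle array 1 are given beside many, but not all, of the lists and genes it moved.

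Few genes passed the test across all genes. Of 12393 genes with a probe set, 8117 were bright enough to be tested: in 3 or more of the 6 arrays they exceeded the level below which 40% of probe sets lay. A gene passed at a limma p adjusted by Benjamini-Hochberg under 0.05, and 4 genes did (0.0493%), 3 higher (0.037%) and 1 lower (0.0123%) in treated mice. An unadjusted limma p under 0.05 was reached by 680 genes (8.38%), of which 312 were higher (3.84%) and 368 lower (4.53%). In 1223 genes the groups did not overlap (15.1%), with all treated arrays above all vehicle arrays in 562 (6.92%) and all below in 661 (8.14%). The median difference of the tested genes was -0.0038. A difference of at least 1 log2 unit was found for 20 genes upward and 31 downward, and at least 2 units for 4 in each direction.

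**Figure D1:**
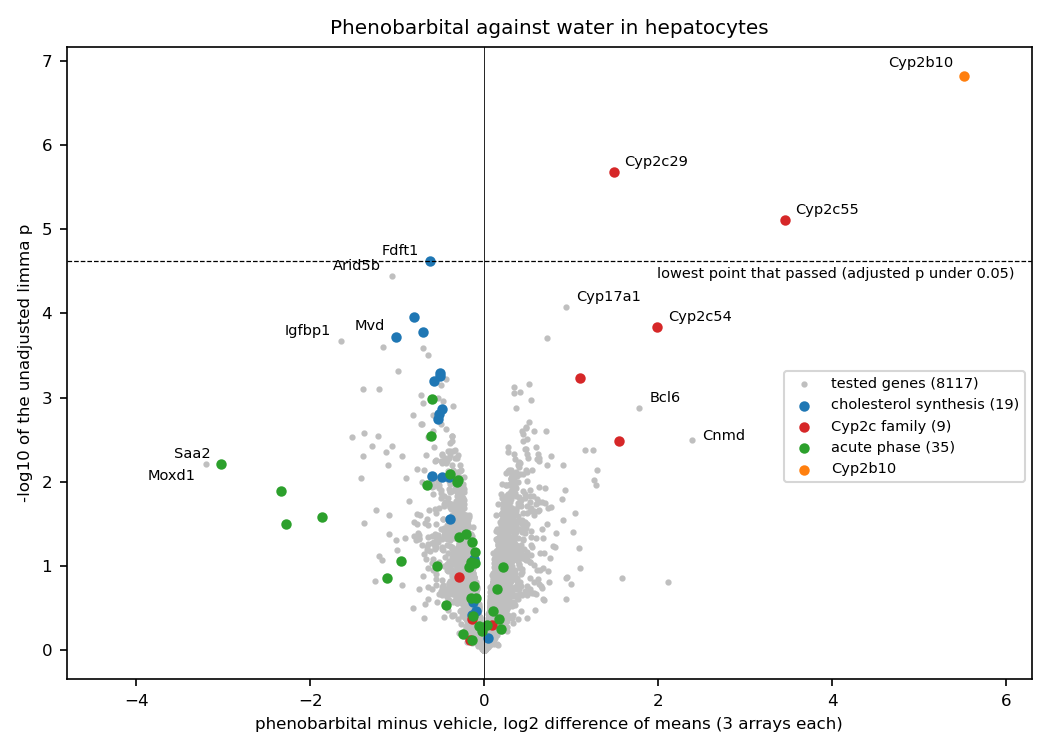
Log2 difference between treated and vehicle hepatocytes (x axis) against -log10 of the unadjusted limma p (y axis) for the 8117 tested genes, with 3 arrays a group. Coloured points are members of named lists, and the dashed line runs through Fdft1, the gene with the largest p among the 4 that passed. Cyp2b10, Cyp2c29 and Cyp2c55 are the highest points on the right, and some genes with larger p, such as Cnmd, lie further right than Cyp2c29. Cholesterol synthesis genes crowd at small negative differences.

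The 4 genes that passed were Cyp2b10, Cyp2c29, Cyp2c55 and Fdft1, and Cyp2b10 alone passed with each single array left out. Without vehicle array 2, or without treated array 1, it was the 1 gene left, and 2 genes passed without treated array 2. Without vehicle array 1 there were 5, with Fdft1 lost and the repressor Bcl6 and the kinase gene Sbk1 gained. Without treated array 3 there were also 5, and apart from Cyp2b10 these were others: Arid5b, Moxd1, Saa1 and Saa2. Moxd1 was then above the filter in vehicle arrays alone.

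The widest response belonged to the Cyp2 enzymes of drug oxidation. Cyp2b10, which hydroxylates barbiturates and many other drugs, was at 7.80, 8.01 and 7.72 in the vehicle arrays and at 13.06, 14.15 and 12.87 in the treated arrays. Every treated array lay far above every vehicle array, and treated array 2 was the highest. Cyp2b10 rose by 5.52 (SE 0.30, 95% interval 4.81 to 6.22), which is 45.8-fold (limma adjusted p 0.00123). Its 2 further probe sets had differences of 6.79 and 7.15. In bulk RNA more cells with a transcript and more transcript per cell cannot be told apart, nor can fewer cells of a type and less RNA per cell. The neighbouring genes of the Cyp2b cluster on chromosome 7 were too dim to be tested. Cyp2b9 was at 4.66, 4.80 and 4.74 in vehicle arrays and at 6.24, 8.80 and 5.41 in treated arrays, so the groups did not overlap and treated array 2 was again the highest. Cyp2b13 had a difference of 0.28 and Cyp2b19 one of 0.14, both with overlapping groups. Members of this family are close in sequence, and how far their probe sets cross-hybridise was not tested.

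The Cyp2c genes, whose enzymes oxidise drugs, steroids and arachidonic acid, lie on chromosome 19, and their differences varied widely along it. Only their order was used here, not the distances between them. Cyp2c55, the first in that order, was at 8.05, 7.50 and 7.57 in vehicle arrays and at 10.73, 11.97 and 10.80 in treated arrays. It rose by 3.46 (SE 0.33, 95% interval 2.70 to 4.22), which is 11-fold (limma adjusted p 0.0213). Cyp2c29 was already high, at 12.06, 12.09 and 12.49, and reached 13.63, 13.77 and 13.72. The treated arrays of Cyp2c29 were close together, and it rose by 1.49 (SE 0.12, 95% interval 1.22 to 1.76), which is 2.81-fold (limma adjusted p 0.00862). Left-out arrays kept its difference between 1.41 and 1.63, and it passed without vehicle array 1 or 3 but not without any of the other 4 arrays (limma adjusted p between 0.0518 and 0.104). Cyp2c55 passed without vehicle array 1 or treated array 2 and not without the other 4 (limma adjusted p between 0.0658 and 0.158), with differences between 3.06 and 3.68.

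Further along chromosome 19, 3 neighbours had wide differences that did not pass. Cyp2c54 was at 10.54, 11.33 and 11.63 in vehicle arrays and at 12.79, 13.51 and 13.18 in treated arrays, a difference of 1.99 (SE 0.29, limma adjusted p 0.146). Cyp2c37 had a difference of 1.55 (SE 0.37) and Cyp2c50 one of 1.10 (SE 0.20). In all 3 the groups did not overlap and vehicle array 1 was the lowest array. Without that array the differences were 1.68, 1.24 and 0.91. Between and beyond these genes lay relatives with small differences and overlapping groups: Cyp2c38 (-0.16, SE 0.47), Cyp2c68 (-0.13, SE 0.16), Cyp2c70 (-0.28, SE 0.17) and Cyp2c23 (0.09, SE 0.12). Cyp2c65, next to Cyp2c55, was dim throughout, at 3.88, 4.15 and 4.17 in vehicle arrays and at 4.60, 5.94 and 5.77 in treated arrays. Of the 9 tested Cyp2c genes, 6 had positive differences with a median of 1.10, and 5 reached an unadjusted limma p under 0.05 upward where 3.84% of all tested genes did.

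**Figure D2:**
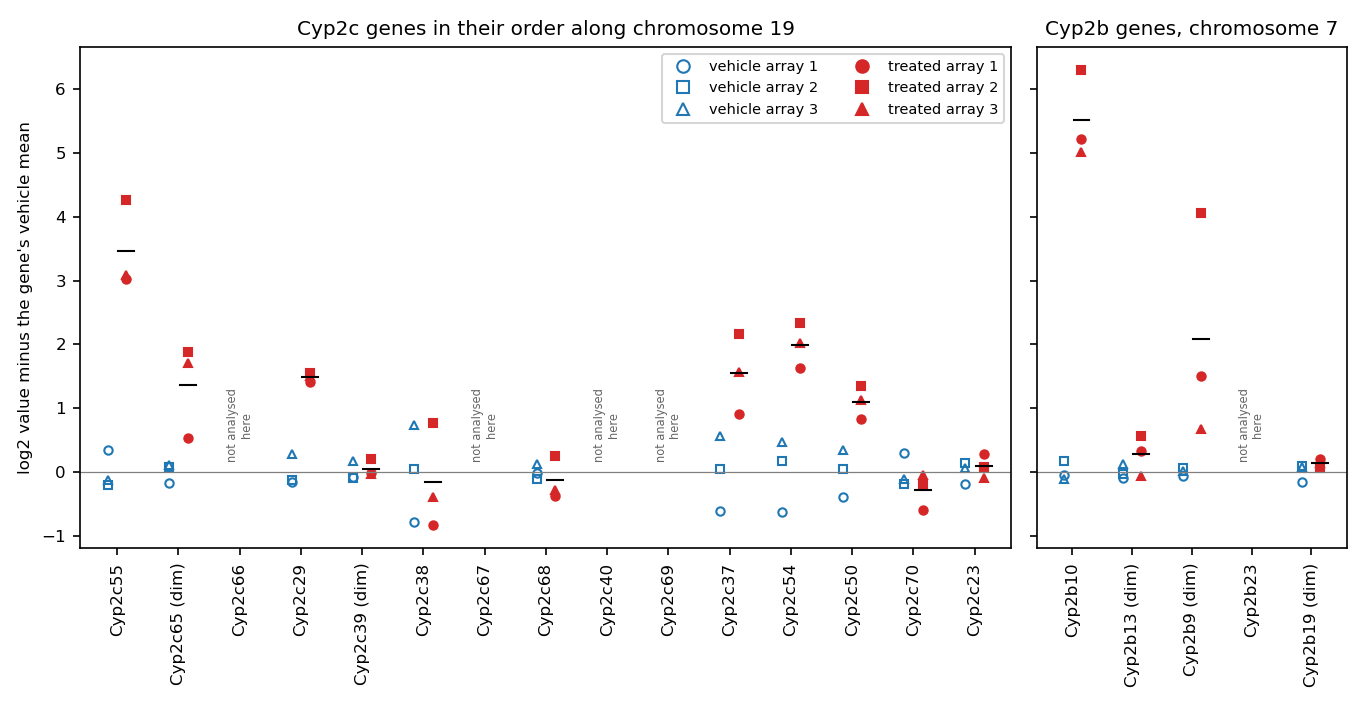
Each point is the log2 value of 1 hepatocyte array minus the vehicle mean of that gene, for the Cyp2c genes in their order along chromosome 19 (left) and the Cyp2b genes of chromosome 7 (right). Open blue marks are vehicle arrays, filled red marks treated arrays, marker shape gives the array number, and short lines are treated means. Cyp2b10 reaches 5.52 and Cyp2c55 3.46, while the treated means of Cyp2c38, Cyp2c68, Cyp2c70 and Cyp2c23 lie near 0. Genes marked dim were not tested, and those without points were not analysed here.

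The 250 bases before the start sites of the 3 genes that rose are shown so that these windows can be set side by side. They come from RefSeq (GRCm38.p6) and lie at chr7:25897408-25897657 on the plus strand for Cyp2b10, chr19:39006769-39007018 on the plus strand for Cyp2c55 and chr19:39286835-39287084 on the plus strand for Cyp2c29. Capitals mark matches on either strand to the TATA box, searched as TATAAA, and to the CCAAT box, whose letters are its name and which reads as ATTGG on the opposite strand.
Cyp2b10: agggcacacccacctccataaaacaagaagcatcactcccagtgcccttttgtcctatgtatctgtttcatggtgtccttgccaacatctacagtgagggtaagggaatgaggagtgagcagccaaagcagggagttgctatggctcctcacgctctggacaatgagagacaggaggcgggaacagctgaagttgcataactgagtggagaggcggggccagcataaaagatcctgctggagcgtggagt
Cyp2c55: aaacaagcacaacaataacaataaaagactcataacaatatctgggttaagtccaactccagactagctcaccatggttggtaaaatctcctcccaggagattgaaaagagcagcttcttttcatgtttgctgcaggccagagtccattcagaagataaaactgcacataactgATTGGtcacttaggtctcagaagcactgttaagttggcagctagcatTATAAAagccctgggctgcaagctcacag
Cyp2c29: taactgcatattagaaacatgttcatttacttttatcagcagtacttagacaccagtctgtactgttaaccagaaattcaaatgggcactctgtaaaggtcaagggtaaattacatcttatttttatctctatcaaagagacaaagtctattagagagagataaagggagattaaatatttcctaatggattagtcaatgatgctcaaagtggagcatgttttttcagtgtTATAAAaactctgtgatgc
TATAAA began 29 bases before the start of Cyp2c55 and 19 bases before that of Cyp2c29. It was found in 4 of the 7 Cyp2c windows in the table (57.1%) and in 12.4% of all 32851 promoter windows. The share was 6.87% over the windows of the tested genes. Cyp2c38 and Cyp2c70, whose differences were -0.16 and -0.28, had matches too, that of Cyp2c70 on the opposite strand. The Cyp2b10 window held none of the motifs searched. The nuclear receptor half-site AGNTCA, repeated after a gap of 4 bases in the arrangement called DR4 that CAR and PXR can bind, was in none of these windows and in 0.103% of all windows. No match says only that these letters are not in this window. Aligned over their whole length, the windows of Cyp2c37 and Cyp2c50, whose differences were 1.55 and 1.10, were 84.3% identical. Those of Cyp2c29 and Cyp2c38, whose differences were 1.49 and -0.16, were 68.8% identical.

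Other P450 genes had narrower differences. Cyp3a11, the main target of PXR, was at 14.50, 14.54 and 14.59 in vehicle arrays and at 14.59, 14.62 and 14.64 in treated arrays, near the top of the scale. Its difference was 0.07 (SE 0.05), and Cyp3a13 and Cyp3a25 had 0.15 (SE 0.13) and 0.09 (SE 0.08), all with overlapping groups. Cyp17a1, the steroid hydroxylase, was at 8.34, 8.34 and 8.71 and then at 9.37, 9.53 and 9.31, without overlap, a difference of 0.94 (SE 0.12, limma adjusted p 0.114). Of 23 other P450 genes tested, 14 had positive differences, with a median of 0.04, and without vehicle array 1 the count was 9 and the median -0.02. Among 17 partner and other oxidising enzymes the median was 0.02, and Akr1d1, a steroid reductase of bile acid synthesis, had the smallest p (0.44, SE 0.10, without overlap).

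Enzymes of conjugation and hydrolysis had mostly positive differences, though none passed. Of 19 glutathione transferase genes tested 15 were positive, with a median of 0.37, and 7 reached an unadjusted limma p under 0.05, all upward, where 3.84% of all tested genes did. Gstt1 was at 11.91, 11.92 and 12.06 in vehicle arrays and at 12.50, 12.63 and 12.31 in treated arrays, a difference of 0.52 (SE 0.09, limma adjusted p 0.249). Gstm3, of the mu class, was at 10.26, 9.70 and 10.13 and then at 10.98, 12.22 and 10.68, a difference of 1.26 (SE 0.37), and its further probe set had the same sign. Gstt3 had a difference of 1.25 (SE 0.31) and Gstm1 one of 0.74 (SE 0.25), for which 3 further probe sets had the same sign. In these 4 genes treated array 2 was the highest array and treated array 3 the lowest of the treated group. Without treated array 2 the median of the list was 0.15, and without vehicle array 1 it was 0.27 with 7 members reaching an unadjusted p under 0.05 upward (4.04% of all tested genes). Gstm3 and Gstm1 had 0.80 and 0.47 without treated array 2. Gstp1 had -0.13 (SE 0.09) with overlapping groups.

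Among 23 other conjugating enzymes 15 had positive differences, with a median of 0.19 that was 0.08 without vehicle array 1. The sulfotransferase Sult1a1 was at 12.90, 12.76 and 12.79 in vehicle arrays and at 13.20, 13.13 and 13.14 in treated arrays, a difference of 0.34 (SE 0.06, limma adjusted p 0.249). Sult1c2 had a difference of 0.58 (SE 0.13) and the glucuronosyltransferase Ugt2b34 one of 0.32 (SE 0.11), which was 0.20 without treated array 2. Some differences ran the other way: the methyltransferase Nnmt had -0.51 (SE 0.15, or -0.33 without treated array 2) and Ugdh, which makes the sugar donor for glucuronidation, had -0.20 (SE 0.08), both with all treated arrays below. The hydrolase list was positive in 13 of 15 members with a median of 0.16, led by the carboxylesterases Ces1d (0.57, SE 0.20), Ces1g (0.49, SE 0.19) and Ces2a (0.42, SE 0.14). Ces1d had 0.35 and Ces1g 0.30 without vehicle array 1. Without vehicle array 1 its median was 0.07 and 11 members were positive.

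Transport, haem synthesis and the receptors themselves showed no common direction. The export pump Abcb1a was at 5.38, 6.50 and 6.35 in vehicle arrays and at 7.11, 7.13 and 6.79 in treated arrays (0.93, SE 0.29), and the difference was 0.58 without vehicle array 1. All its vehicle values lay below the filter for dim genes, so Abcb1a was tested through its treated arrays alone, and its difference had to be positive. The cholesterol exporter Abca1 had -0.31 (SE 0.10). Of 20 transporters tested 12 were positive with a median of 0.09, and without vehicle array 1 these were 10 and -0.03. Alas1, the first enzyme of haem synthesis, was at 12.09, 12.93 and 13.02 and then at 11.75, 12.22 and 12.36, with overlap, a difference of -0.57 (SE 0.26) that was -0.86 without vehicle array 1. CAR (Nr1i3) itself ranged from 7.98 in vehicle array 1 to 9.57 in vehicle array 2, with treated arrays at 8.43, 9.42 and 9.13. Its spread within the groups was far wider than the difference of 0.01 (SE 0.43). PXR (Nr1i2) had 0.21 (SE 0.10). The epidermal growth factor receptor gene Egfr was at 11.90, 11.74 and 11.62 in vehicle arrays and at 11.02, 11.03 and 11.45 in treated arrays, all below, with a difference of -0.59 (SE 0.13, limma adjusted p 0.381) and the same sign in 4 of 4 further probe sets. Of 23 NRF2 target genes tested 10 were positive, and the quinone reductase Nqo1 had 0.24 (SE 0.12).

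Cholesterol synthesis genes lay lower in treated hepatocytes along most of the pathway. This pathway builds mevalonate from acetyl-CoA, turns it into farnesyl units, joins these to squalene and folds and trims squalene to cholesterol, and its genes are switched on together by SREBP-2 (Srebf2). Of 19 members tested 18 had negative differences, with a median of -0.51, and 14 reached an unadjusted limma p under 0.05 downward, where 4.53% of all tested genes did. In 14 all treated arrays lay below all vehicle arrays, as in 8.14% of all tested genes. The mean level of the 19 genes was 10.90, 10.91 and 10.89 in vehicle arrays and 10.43, 10.51 and 10.42 in treated arrays, so the spread within each group was under the gap between them. Vehicle array 1 did not stand apart here. Without it the median was -0.54, and 14 members reached an unadjusted p under 0.05 downward, where 3.76% of all tested genes did.

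Fdft1, the squalene synthase at the branch point to sterols, was the member that passed. It was at 11.71, 11.76 and 11.68 in vehicle arrays and at 11.04, 11.16 and 11.07 in treated arrays. The arrays of each group were close together, and Fdft1 fell by 0.63 on the log2 scale (SE 0.07, 95% interval -0.79 to -0.47), which is 1.54-fold (limma adjusted p 0.0486). That call is at the edge of the threshold. It was lost with any 1 array left out (limma adjusted p between 0.0752 and 0.295, differences between -0.66 and -0.60). Of its 3 further probe sets 1 had -0.57 (SE 0.08), while the others had -0.05 (SE 0.16) and 0.22 (SE 0.24). The mean of all 4 gave -0.26 (limma adjusted p 0.567).

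The early steps of the pathway come first. Hmgcs1, which makes HMG-CoA, was at 12.91, 13.03 and 12.71 in vehicle arrays and at 11.95, 12.03 and 12.26 in treated arrays, a difference of -0.80 (SE 0.11, limma adjusted p 0.127). Its 3 further probe sets had -0.96, -0.85 and -0.97. Mvd, the mevalonate diphosphate decarboxylase, was at 8.90, 8.52 and 8.34 and then at 7.62, 7.68 and 7.42, a difference of -1.02 (SE 0.15, limma adjusted p 0.146). Idi1, the isomerase after it, was at 12.20, 12.18 and 12.20 and then at 11.43, 11.60 and 11.83. In each of these genes all treated arrays lay below all vehicle arrays. The same held for Mvk (-0.53), Pmvk (-0.41) and Fdps (-0.52), although the further probe set of Fdps had the opposite sign. Ggps1, which leads away from sterols to geranylgeranyl groups, had 0.04 (SE 0.11) with overlapping groups. It was the single positive member, and without vehicle array 3 it had -0.05.

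Members after squalene had both non-overlapping and overlapping groups. Sqle, the squalene epoxidase, was at 11.66, 11.52 and 11.63 in vehicle arrays and at 11.02, 10.99 and 10.70 in treated arrays, a difference of -0.70 (SE 0.10, limma adjusted p 0.146). Cyp51, the lanosterol demethylase, had -0.51 (SE 0.09), and its 2 further probe sets had -0.59 and -0.46. Dhcr7, the last reductase, was at 10.84, 10.62 and 10.59 and then at 10.20, 10.16 and 10.18, a difference of -0.51 (SE 0.09). Lss (-0.48), Msmo1 (-0.60) and Nsdhl (-0.49) also had no overlap, while Tm7sf2 (-0.10), Lbr (-0.13) and Ebp (-0.13) had overlapping groups. Srebf2 was at 8.85, 8.59 and 8.78 and then at 8.64, 8.62 and 8.77, so the groups overlapped (-0.06, SE 0.10). Scap, which escorts SREBP to its processing, had -0.23 (SE 0.07) with all treated arrays below. Of the 17 genes of SREBP control and cholesterol uptake that were tested, 5 had positive differences and the median was -0.06. Of 22 genes of fatty acid synthesis, driven by the sister factor SREBP-1, 11 were positive, the median was 0.0057 and none reached an unadjusted limma p under 0.05. That median was -0.08 without vehicle array 1 and 0.21 without treated array 3.

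**Figure D3:**
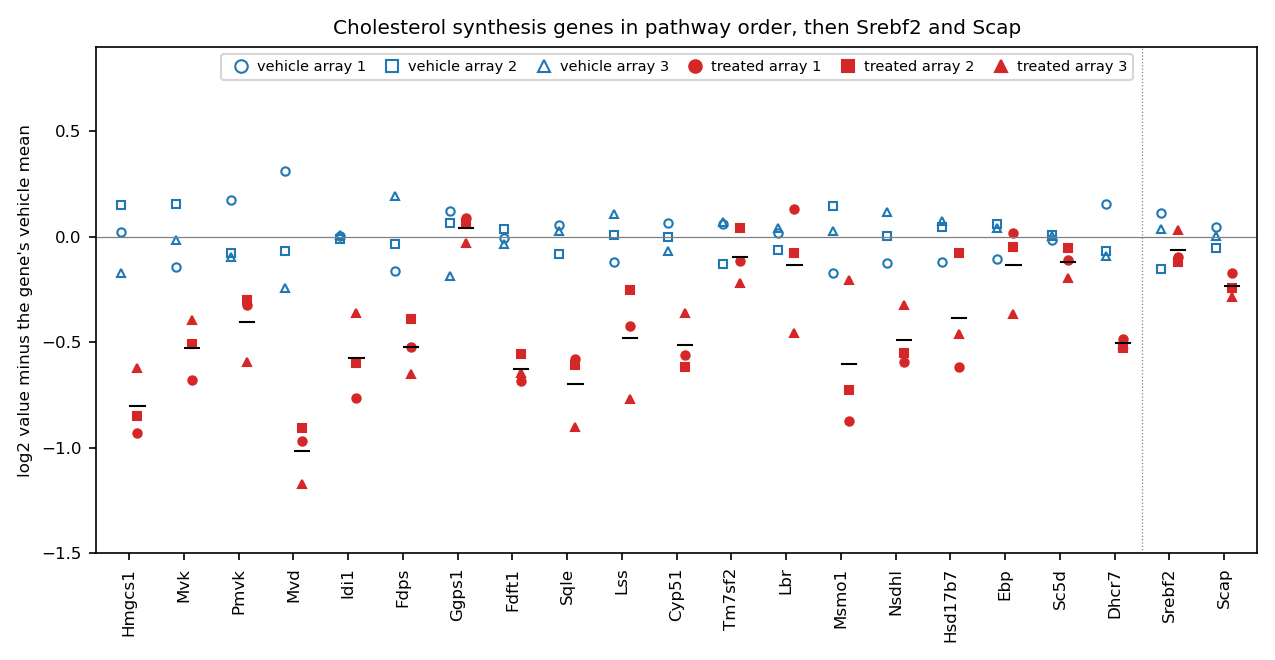
Log2 value of each hepatocyte array minus the gene's vehicle mean, for the 19 measured genes of cholesterol synthesis in pathway order and, right of the dotted line, Srebf2 and Scap. Open blue marks are vehicle arrays, filled red marks treated arrays, marker shape gives the array number and short lines are treated means. Most genes from Hmgcs1 to Dhcr7 have all red marks below all blue ones, with Mvd lowest at -1.02. Ggps1, Tm7sf2, Lbr, Ebp and Srebf2 are among those that overlap. The values of Hsd17b7 and Sc5d are shown here but not given in the text.

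Promoter windows of 3 members with wide differences are shown for the letters they share. Capitals mark the CCAAT box on either strand and, in Hmgcs1, a match to the sterol response element that SREBP can bind, searched as TCACNCCAC on both strands. The windows are the 250 bases before the start site in RefSeq (GRCm38.p6), at chr13:119690101-119690350 on the plus strand for Hmgcs1, chr8:122443423-122443672 on the minus strand for Mvd and chr13:8885356-8885605 on the plus strand for Idi1.
Hmgcs1: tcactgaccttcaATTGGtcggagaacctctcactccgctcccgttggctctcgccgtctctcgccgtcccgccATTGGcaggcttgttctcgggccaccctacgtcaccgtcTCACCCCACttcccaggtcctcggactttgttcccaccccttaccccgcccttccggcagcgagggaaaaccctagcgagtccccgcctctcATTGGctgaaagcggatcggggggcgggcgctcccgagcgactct
Mvd: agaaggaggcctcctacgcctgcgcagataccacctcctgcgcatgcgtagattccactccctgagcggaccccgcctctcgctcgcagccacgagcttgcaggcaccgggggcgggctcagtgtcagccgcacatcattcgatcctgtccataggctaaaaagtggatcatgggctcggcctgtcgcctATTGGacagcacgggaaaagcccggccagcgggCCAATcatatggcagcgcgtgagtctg
Idi1: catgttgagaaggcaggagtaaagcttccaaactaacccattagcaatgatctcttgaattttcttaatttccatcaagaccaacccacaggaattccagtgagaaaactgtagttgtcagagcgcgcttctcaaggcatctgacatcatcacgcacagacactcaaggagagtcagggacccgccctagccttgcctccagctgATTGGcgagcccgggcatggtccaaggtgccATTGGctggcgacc
All 16 cholesterol synthesis genes that the table holds had CCAAT in at least 1 window, and 16 of their 19 windows did (84.2%). The share was 33.8% over all promoter windows and 34.8% over those of the tested genes. Ggps1, Tm7sf2, Lbr and Ebp, whose groups overlapped, carried it as well. The sterol element matched in Hmgcs1 alone, 137 bases before the start, which is 5.26% of the windows of the list against 1.05% of all windows. No CCAAT match overlapped a match to the other motifs in these windows. A match describes letters and shows no binding.

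Acute phase genes code for proteins that hepatocytes secrete into plasma under cytokine signals, and the serum amyloids Saa1 and Saa2 among them were far lower in treated arrays 1 and 2 than in the other 4 arrays. Saa1 was at 14.24, 14.41 and 13.99 in vehicle arrays and at 10.88, 10.90 and 13.85 in treated arrays, a difference of -2.34 (SE 0.72, limma adjusted p 0.477). Saa2 was at 13.02, 13.78 and 12.83 and then at 8.93, 9.34 and 12.31, a difference of -3.02 (SE 0.80, limma adjusted p 0.433). Saa1 and Saa2 had all treated arrays below all vehicle arrays, with treated array 3 close to the vehicle group. Without treated array 3 their differences were -3.32 and -4.08 and both passed. The constitutive serum amyloid Saa4 was at 13.15, 13.20 and 13.07 and then at 12.69, 12.56 and 12.99, a smaller difference of -0.39 (SE 0.11). The iron-binding lipocalin Lcn2 (10.88, 11.57 and 9.53, then 7.15, 7.56 and 10.44) and the acid glycoprotein Orm2 (12.08, 13.20 and 11.29, then 9.34, 9.87 and 11.79) showed the same order of treated arrays, with overlap. Of 35 genes tested 29 were negative, with a median of -0.17, and 12 reached an unadjusted p under 0.05 downward, where 4.53% of all tested genes did. With single arrays left out that count ran from 7 to 16, where 3.42% to 4.62% of all tested genes did. They included Itih3 (-0.60, SE 0.12), the interleukin-1 receptor Il1r1 (-0.61, SE 0.14) and haptoglobin (Hp, -0.31, SE 0.09). Without vehicle array 1 the median stayed at -0.17, and without treated array 3 it was -0.27. Treated array 3 is also the array with the highest Kupffer and endothelial marker levels given above, and the part of those cells in this result was not tested.

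Moxd1, a monooxygenase, followed the serum amyloids. It was at 9.84, 10.49 and 10.12 in vehicle arrays and at 5.93, 5.69 and 9.26 in treated arrays, a difference of -3.19 (SE 0.85, limma adjusted p 0.433). Treated arrays 1 and 2 lay below the filter for dim genes, and treated array 3 lay near the vehicle group. Without treated array 3 the difference was -4.34. Moxd1 passed there, but it then entered the test through the vehicle arrays alone, so that its sign was fixed by the filter.

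**Figure D4:**
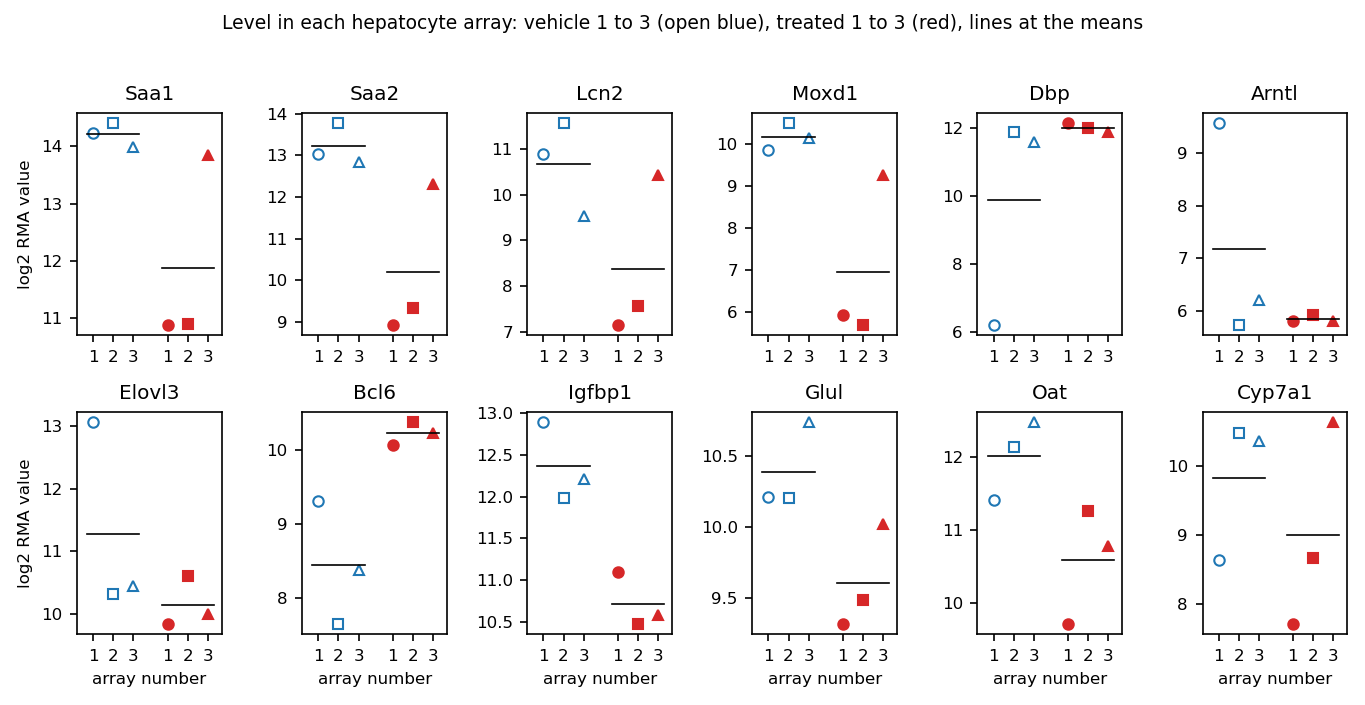
Log2 RMA level of 12 genes in each hepatocyte array, with vehicle arrays 1 to 3 as open blue marks, treated arrays 1 to 3 as filled red marks and lines at the group means. Each gene has its own y axis. In Saa1, Saa2, Lcn2 and Moxd1 treated array 3 lies near the vehicle group, and in Dbp, Arntl and Elovl3 vehicle array 1 lies apart from the other 5 arrays.

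The interferon list had positive differences in 33 of 34 tested members, with a median of 0.25, and 8 members reached an unadjusted limma p under 0.05, all upward, where 3.84% of all tested genes did. Ifit3, an antiviral protein, was at 7.51, 7.44 and 7.61 in vehicle arrays and at 7.92, 8.76 and 8.19 in treated arrays, a difference of 0.77 (SE 0.20, limma adjusted p 0.433). Gbp3, a guanylate-binding protein, was at 6.77, 6.54 and 6.79 and then at 7.59, 8.93 and 7.47 (1.30, SE 0.36). Irf7, the transcription factor of the response, had 0.52 (SE 0.16). Treated array 2 was the highest in these 3 genes, and without it Gbp3 had 0.83. In 5 members all treated arrays lay above all vehicle arrays, as in 6.92% of all tested genes. The mean level of the 42 measured genes was 8.13, 7.80 and 7.82 in vehicle arrays and 8.08, 8.56 and 8.10 in treated arrays, so vehicle array 1 lay above treated arrays 1 and 3. Without vehicle array 1 the median was 0.42 and 16 members reached an unadjusted p under 0.05 upward, as 4.04% of all genes tested then did. With treated array 2 left out the median was 0.12.

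Genes of fatty acid oxidation, targets of the lipid sensor PPAR alpha, were positive in 31 of 36 tested members, with a median of 0.19. The acyl-CoA thioesterase Acot4 was at 7.62, 8.16 and 8.11 in vehicle arrays and at 8.80, 9.03 and 8.18 in treated arrays (0.70, SE 0.23). The pantetheinase Vnn1 was at 8.73, 8.98 and 8.80 and then at 9.41, 10.87 and 9.36 (1.05, SE 0.37). Both had all treated arrays above all vehicle arrays, and without treated array 2 the difference of Vnn1 was 0.55. The mean level of the list was lowest in vehicle array 1, at 10.06, while treated array 3, at 10.24, lay below vehicle arrays 2 and 3, at 10.42 and 10.49. With all arrays 6 members reached an unadjusted p under 0.05 upward (3.84% of all tested genes). Without vehicle array 1 the median was 0.10 and 2 members did, a share near the 4.04% of all tested genes. When treated array 3 was left out, the median was 0.31 and 17 members did, against 4.54% of all tested genes. Respiratory chain genes had a median of 0.06, with 32 of 43 positive, and ribosomal protein genes one of 0.06, with 23 of 27 positive. None of the ribosomal genes reached an unadjusted p under 0.05.

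Genes kept by Wnt signals around the central vein, where phenobarbital targets are most active, had negative differences in 12 of 13 tested members, with a median of -0.23. Glul, the glutamine synthetase of the innermost hepatocytes, was at 10.21, 10.20 and 10.74 in vehicle arrays and at 9.32, 9.48 and 10.02 in treated arrays, a difference of -0.77 (SE 0.21, limma adjusted p 0.45). Oat, the ornithine aminotransferase of the same cells, was at 11.41, 12.13 and 12.48 and then at 9.71, 11.26 and 10.78 (-1.42, SE 0.41). Notum, which inactivates Wnt proteins, was at 8.35, 8.46 and 8.84 and then at 7.71, 7.90 and 7.88 (-0.72, SE 0.14). The glutamate transporter Slc1a2 had -1.10 (SE 0.30). In these 4 genes all treated arrays lay below all vehicle arrays, and 5 members of the list did so, as did 8.14% of all tested genes. The drug-metabolising pericentral genes Cyp2e1 (-0.23, SE 0.22) and Cyp1a2 (-0.11, SE 0.33) had small differences with overlap. Classical Wnt targets were too dim to be tested, among them Axin2, Lgr5 and Lef1. The list median was -0.38 without vehicle array 1 and -0.06 without treated array 1. Among 16 periportal and urea cycle genes the median was 0.0026, 8 were positive and none reached an unadjusted p under 0.05.

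Growth hormone and sex-biased genes pointed both ways. Bcl6, a repressor that acts against STAT5 in male liver, was at 9.31, 7.65 and 8.38 in vehicle arrays and at 10.07, 10.39 and 10.24 in treated arrays, a difference of 1.78 (SE 0.36, limma adjusted p 0.293). Vehicle array 1 was the highest of its group, and without it the difference was 2.21 and Bcl6 passed (limma adjusted p 0.0209). Cish, a feedback inhibitor of STAT5 signalling, was at 9.68, 9.34 and 8.57 and then at 7.85, 7.60 and 7.97 (-1.39, SE 0.26), and it passed without vehicle array 3. Igfbp1, a binding protein for insulin-like growth factors, was at 12.89, 11.98 and 12.21 and then at 11.10, 10.48 and 10.59 (-1.64, SE 0.25, limma adjusted p 0.146). Without vehicle array 1 the difference of Igfbp1 was -1.38. Onecut1, the hepatocyte factor HNF6, had -1.16 (SE 0.18), and its further probe set had -1.40. Igf1 was at 13.10, 13.03 and 12.94 and then at 12.92, 12.84 and 13.10, with overlap. In all, 18 of 26 tested members were negative, with a median of -0.17, and that was -0.14 without vehicle array 1.

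Bile acid genes and amino acid genes held single wide differences within lists whose medians were near 0. Cyp7a1, the rate-limiting enzyme of bile acid synthesis, was at 8.64, 10.47 and 10.37 in vehicle arrays and at 7.72, 8.67 and 10.64 in treated arrays, with overlap (-0.82, SE 0.76). That difference was -1.41 without vehicle array 1, -1.64 without treated array 3, -0.50 without vehicle array 2 and -0.17 without treated array 1. Cyp7b1, of the other bile acid pathway, had -0.69 (SE 0.19) with all treated arrays below. The median of 22 bile acid genes was -0.0056. Csad, which makes taurine, was at 9.51, 9.75 and 10.39 and then at 7.69, 8.75 and 9.02 (-1.40, SE 0.36). Asns, the asparagine synthetase and a target of ATF4, was at 8.53, 8.03 and 8.02 and then at 6.61, 6.90 and 7.42 (-1.21, SE 0.23), and its further probe set had -2.06. The ATF4 list was negative in 17 of 27 members, with a median of -0.08 that was -0.03 without vehicle array 1, and the 40 tested genes of amino acid breakdown had a median of -0.014, or -0.064 without vehicle array 1.

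Cell cycle and growth arrest lists had no common direction, while immediate early genes were mostly lower. Of 27 tested cell cycle and mitogenic genes 14 were positive, with a median of 0.0087, and of 25 growth arrest and p53 genes 9 were positive, with a median of -0.04. Vehicle array 1 was the highest array for Myc, Gadd45g and Fos. The oncogene Myc was at 9.0, 7.91 and 8.0 in vehicle arrays and at 6.91, 7.23 and 7.37 in treated arrays, a difference of -1.13 (SE 0.28) that was -0.78 without vehicle array 1. The growth factor Hbegf had 0.42 (SE 0.14). Cyclin D1 (Ccnd1), which drives entry into the cell cycle, was at 8.36, 8.51 and 8.78 and then at 7.84, 7.98 and 8.05 (-0.59, SE 0.12, limma adjusted p 0.317). Mki67, the marker of dividing cells, was dim in all 6 arrays, between 4.74 and 5.53. Gadd45g, a growth arrest gene, was at 11.17, 10.63 and 10.91 and then at 9.73, 9.79 and 10.21 (-0.99, SE 0.17). The immediate early gene Fos is one that cell isolation can switch on. It was at 11.66, 11.07 and 10.86 and then at 10.18, 9.93 and 10.66 (-0.94, SE 0.24, or -0.71 without vehicle array 1). The immediate early list was negative in 20 of 29 members, with a median of -0.17, or -0.16 without vehicle array 1. In it 10 members reached an unadjusted limma p under 0.05 downward and 2 upward. Of all tested genes 4.53% and 3.84% did. Without vehicle array 1 these were 6 downward and 1 upward, where 3.76% and 4.04% of all tested genes did.

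Chaperones of the endoplasmic reticulum were negative in 28 of 30 tested members, with a median of -0.17. Vehicle array 1 had the highest mean level of that list, 11.27, while the other 5 arrays lay between 10.71 and 10.91. With it 5 members reached an unadjusted p under 0.05 downward (4.53% of all tested genes). Without that array the median was -0.08 and 2 members did, a share near the 3.76% of all tested genes. For the clock genes the median of 19 tested members was 0.34 with that array and -0.03 without it. Dbp, a clock output, had a difference of 2.12 (SE 1.34) with vehicle array 1 and 0.28 without it.

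**Figure D5:**
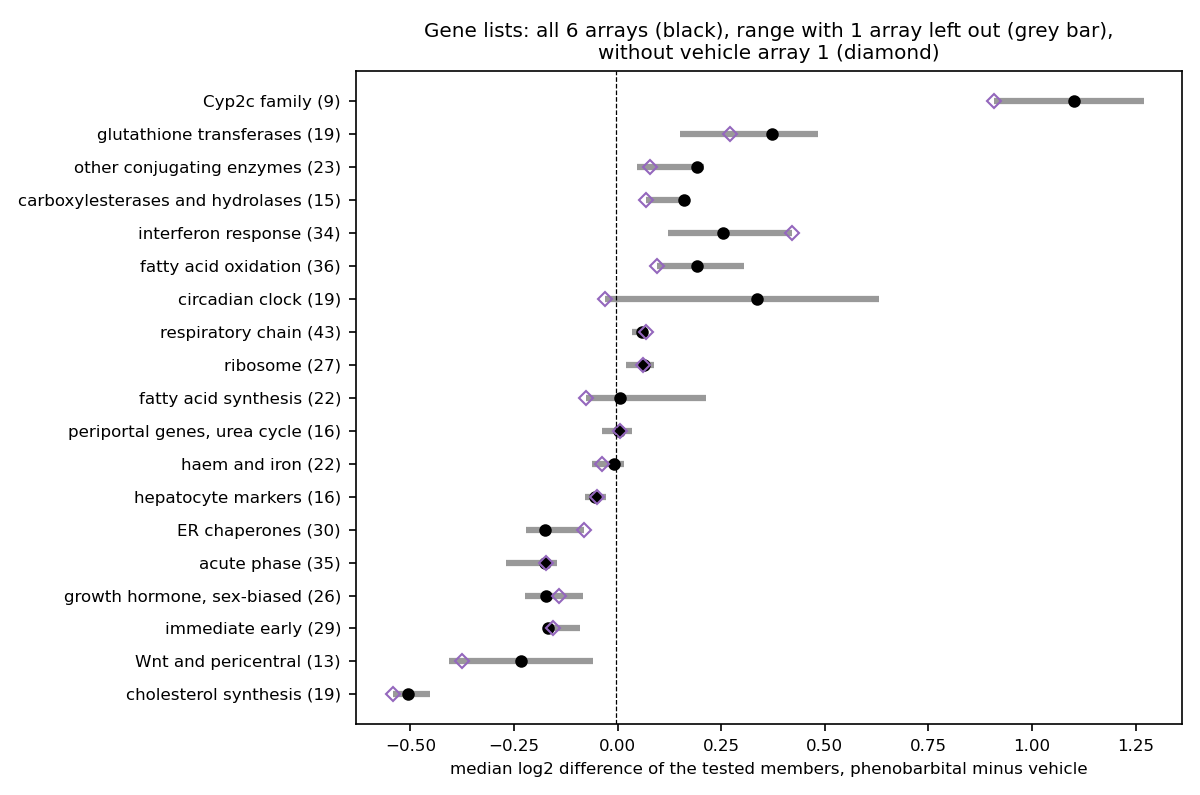
Median log2 difference, treated minus vehicle, of the tested members of 19 gene lists (number of members in brackets), with all 6 hepatocyte arrays (black points), the range of medians when 1 array is left out (grey bars) and the median without vehicle array 1 (open diamonds). The dashed line is the median of all tested genes, -0.0038. Cholesterol synthesis stays between -0.54 and -0.45 and the Cyp2c family between 0.91 and 1.27, while the clock median runs from -0.03 to 0.63.

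Outside these lists a few genes of other kinds had wide differences without overlap. Cnmd, a secreted inhibitor of vessel growth, was at 5.71, 7.65 and 7.87 in vehicle arrays and at 8.82, 10.02 and 9.55 in treated arrays, a difference of 2.39 (SE 0.56, limma adjusted p 0.408) that was 1.70 without vehicle array 1. Rab30, a small GTPase of the Golgi, had 1.17 (SE 0.29) and the adaptor Blnk 0.91 (SE 0.24). Without vehicle array 1 Rab30 had 0.90 and Blnk 0.62. Downward, Arid5b, a DNA-binding regulator of fat and liver metabolism, was at 9.96, 9.91 and 9.83 and then at 8.80, 8.62 and 9.09. The arrays of each group were close, and the difference of -1.06 (SE 0.12) missed the threshold at a limma adjusted p of 0.0583. It passed without treated array 3, and its further probe set had -0.37 (SE 0.10). The homeobox gene Hhex was at 12.02, 11.03 and 11.10 and then at 9.99, 9.94 and 10.57 (-1.22, SE 0.28). Its difference was -0.90 without vehicle array 1. Dnase2a, the lysosomal DNase, had -1.38 (SE 0.31), the phospholipid flippase Atp11a -1.52 (SE 0.35) and the lipocalin Obp2a -1.29 (SE 0.31). Without vehicle array 1 Dnase2a had -1.54, Atp11a -1.14 and Obp2a -1.02. Treated arrays 1 and 2 of Atp11a, at 6.36 and 6.12, lay below the filter for dim genes.

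Whether the response differed from that of mesenchymal cells was asked with the difference of the 2 effects in 1 limma fit over all 12 arrays. That fit took the 12 arrays as independent. Any pairing of same-numbered hepatocyte and mesenchymal arrays was not modelled. Of 9031 genes 0 passed (0%), with the smallest adjusted p at 0.108, and 492 had an unadjusted p under 0.05 (5.45%). Cyp2b10 was at 7.18, 7.40 and 7.19 in vehicle mesenchymal arrays and at 9.39, 7.82 and 7.57 in treated ones, so treated array 1 of that population stood out. The same array had the highest value of the 6 mesenchymal arrays for 15 of 16 hepatocyte markers. Their mean level was 10.03 there and between 8.55 and 9.34 in the other 5, and their linear sum was 61637 against 22147 to 39336, with 2 to 4 markers below the filter in each array. The part of hepatocyte RNA in the mesenchymal values of Cyp2b10 and Cyp2c29 was not tested. The effect of phenobarbital on Cyp2b10 was 4.51 log2 units wider in hepatocytes (SE 0.60, limma adjusted p 0.108), and without that mesenchymal array it was 5.08 wider and passed (limma adjusted p 0.00117). Cyp2c29 was at 6.63, 7.44 and 7.51 and then at 11.58, 9.51 and 8.72 in mesenchymal arrays, a difference of the effects of -1.25 (SE 0.78, limma adjusted p 0.929). Fdft1 was at 7.51, 7.65 and 7.30 and then at 7.92, 7.62 and 7.40 there, and its effects differed by -0.79 (SE 0.18, limma adjusted p 0.743). Without treated hepatocyte array 3, Moxd1 was the 1 gene that passed, with effects that differed by -3.98 (SE 0.31, limma adjusted p 0.00159). It was then above the filter in the 3 vehicle hepatocyte arrays alone, with mesenchymal values between 4.67 and 5.62, so this call rests on how it entered the test.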

How the data were processed

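Total RNA of each sample was amplified with an Affymetrix 3′ kit and hybridised to 1 array, per the labels' protocols. The authors deposited log2 expression values for 22626 probe sets. The submitters' processing notes name RMA, whose version was not given in the sources used here. This method brings all 12 arrays to a common distribution, so a shift of most genes in 1 direction would be removed. Array scan dates were not used here.

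Gene names came from the platform's annotation table: 20380 probe sets had 1 symbol, 691 several and 1555 none, and those of the last 2 kinds were not used. Of each of 12393 genes, the brightest probe set over the 12 arrays was kept. Tests were limma 3.58.1 (R 4.3.3) fits with an intensity trend (lmFit, eBayes) on the 6 hepatocyte arrays, with the filter and threshold given above, and on all 12 for the difference of effects. The hepatocyte fit was also run on simulated data with known differences and independent noise for each gene. That simulation held no array that stood apart as vehicle array 1 did.

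The 47 gene lists and the members were chosen with earlier results of these data known. Named genes were those that passed, up to 15 in each direction with the largest difference among non-overlapping genes at an unadjusted p under 0.01, up to 6 members of each list with the smallest p, and a set of known response genes. Other members named to complete a pathway, cluster or list were chosen after their values were seen. List medians cover tested members, list means of arrays all measured ones, and a list's counts and median were not tested. Promoter windows came from RefSeq's table, 250 bases before each start. No pairing of same-numbered vehicle and treated samples is stated. Deviations of same-numbered arrays correlated at -0.0578, -0.088 and -0.0935, which cannot show whether they shared a batch. Alternatives changed the filter, scaling, probe set rule, prior, arrays in the fit and block, and left out single arrays.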

Additional observations from a re-analysis of the deposited data

How the results depend on the processing

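The count of 4 passing genes was 1 with all 12 arrays in 1 fit and 9 probe sets (of 6 genes) with every probe set tested on its own, and ranged from 1 to 5 with single arrays left out. Other filters, scalings and priors gave 3 to 5. Cyp2b10 passed in each of these fits. With the replicate number as a block, although no pairing is stated, 4 genes passed, and 2 of them (Cyp2b10 and Cyp2c29) were among the main 4. Fdft1 missed the threshold with a common median (limma adjusted p 0.0597), no intensity trend (0.109), the filter at the array median (0.05002), all 12 arrays (0.176), the mean of its probe sets (0.567) and the block (0.135). Cyp2c55 missed it with robust eBayes (0.111), all 12 arrays (0.0651) and the block (0.0519), and Cyp2c29 with all 12 arrays (0.432). For the difference from mesenchymal cells 0 genes passed without a filter and with the replicate number as a block within each population. With single arrays left out 0 to 1 passed.

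Signs that turned belonged to small differences. With single arrays left out, Cyp1a2 ran from -0.39 to 0.31, Cyp2c23 from -0.012 to 0.18, Cyp2c38 from -0.62 to 0.21, Ggps1 from -0.052 to 0.10, Lbr from -0.27 to 0.028 and Nr1i3 from -0.49 to 0.30. With 3 arrays a group the design limits what can pass, and dim genes carry no test.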
